A study of Mus musculus with 4 samples.

Results

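TRAV7 is a family of variable segments of the mouse T-cell receptor alpha chain (TRA). Its members were taken from the receptor tables as alpha contigs whose V segment was named TRAV7, TRAV7D or TRAV7N followed by a number. Productive contigs, which can be read through as a protein, gave the main counts. They were 23 chains in 23 cells, of 181 productive TRA chains in 167 cells, and used 8 of the 54 TRAV segments found. Nonproductive contigs of the family, 6 in all, are described beside them. The family and its layout were chosen with earlier results of these libraries known, so its level in each library is a description.

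The study asked how loss of retinoic acid signals bears on immune escape of IDH mutant gliomas. At 6 weeks of age C57BL6 mice were given 50000 cells of glioma neurospheres in the striatum. All-trans retinoic acid (ATRA), a hormone made from vitamin A, was injected every other day at 10 mg/kg, against control, until disease of the central nervous system showed. Tumors with the brain around them were dissociated, and cells bearing CD45, the general surface marker of leukocytes, were sorted. Both groups thus carry the same transplanted glioma, and what the control mice received is not described further in the labels. There was 1 T-cell receptor library per treatment and no replicate, so no test between treatments was possible. The labels do not say how many mice a library pooled. Of the 4 samples of the series, those of gene expression were not used here, so the T-cell identity of the barcodes was not checked against marker genes.

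The control library held 74 cells with a receptor, of which 34 had a productive TRA, and the ATRA library 160, of which 133 did. Productive chains carried 382 and 1841 unique molecular identifiers (UMIs, tags of single captured RNA molecules). No barcode occurred in both libraries (0 shared). Intervals in parentheses are 95% exact (Clopper-Pearson) binomial intervals. They cover counting error only and leave out differences between mice. Where a count was 0, the upper limit given is the share that 3 counts would make.

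An alpha chain is built in the thymus by joining 1 TRAV to 1 TRAJ segment, with bases trimmed and added at the junction. The junction encodes the CDR3, the loop at the centre of the receptor's contact with peptide and MHC, while CDR1 and CDR2 lie within the V segment. A cell can rearrange both of its alpha alleles and can replace a first V-J join by another that uses a more upstream V and a more downstream J. In C57BL/6 mice part of the TRAV cluster is present in several copies, and segments of the copies carry a D or an N in their name. TRAV7 is a family with such copies.

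The annotation of the RefSeq table for GRCm38.p6 listed 14 TRAV7 V segments on chromosome 14, and all 8 segment names found here matched it. The one farthest from the TRAJ cluster was TRAV7-1, at 52654817 to 52655329, which lies 1499.7 kb before the first TRAJ segment. The D copies found were TRAV7D-2 at 52683964 to 52684472, TRAV7D-3 at 52744314 to 52744838 and TRAV7D-5 at 52835861 to 52836387. TRAV7N-6 lies at 53324676 to 53325208. Nearest to TRAJ among those found were TRAV7-3 at 53443314 to 53443839, TRAV7-4 at 53461209 to 53461738 and TRAV7-5 at 53530786 to 53531313. TRAV7-2, TRAV7-6, TRAV7D-4, TRAV7D-6, TRAV7N-4 and TRAV7N-5 were named in 0 contigs. Copies with the same number can be nearly the same in sequence, and how the assembly chose between them was not tested, so each number is also given with its copies merged.

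The junctions are shown first because they tell the chains of a segment apart. In the CDR3 sequences below, taken from the deposited contigs, the small letters at the start are bases shared with another TRAV7 chain of the same number that used another TRAJ. The small letters at the end are bases shared with a TRA contig that used the same TRAJ with another V. Capitals mark the bases in between, and some bases may be shared by chance. The TRAV7-3 chains of the control library and the TRAV7D-2 chain that also used TRAJ30 were as follows.
TRAV7-3 with TRAJ21, control: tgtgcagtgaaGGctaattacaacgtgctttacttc
TRAV7-3 with TRAJ27, control: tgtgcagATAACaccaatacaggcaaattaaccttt
TRAV7-3 with TRAJ30, control: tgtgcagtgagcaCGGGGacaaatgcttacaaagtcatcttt
TRAV7-3 with TRAJ49, control: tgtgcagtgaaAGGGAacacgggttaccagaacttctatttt
TRAV7D-2 with TRAJ30, ATRA: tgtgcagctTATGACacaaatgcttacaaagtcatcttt

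The TRAV7-4 chains, all from the ATRA library, are shown because 3 of them shared 17 bases on the V side. For TRAJ32 the V side and the J side met with 0 bases between them, and for TRAJ52 they overlapped, so no base is in capitals.
TRAV7-4 with TRAJ16: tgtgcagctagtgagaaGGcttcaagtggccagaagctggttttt
TRAV7-4 with TRAJ17: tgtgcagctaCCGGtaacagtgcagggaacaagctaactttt
TRAV7-4 with TRAJ32: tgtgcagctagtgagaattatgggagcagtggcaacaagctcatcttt
TRAV7-4 with TRAJ52: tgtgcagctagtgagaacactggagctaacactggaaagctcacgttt

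A further set shows the TRAJ segment found in the most TRAV7 cells, TRAJ37, which was joined to copies of different numbers.
TRAV7D-2 with TRAJ37, ATRA: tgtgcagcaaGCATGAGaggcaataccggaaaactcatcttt
TRAV7D-5 with TRAJ37, ATRA: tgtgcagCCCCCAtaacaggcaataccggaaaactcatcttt
All 20 distinct TRAV7 chains, these and the others, began with the same 7 bases. The first 6 of those bases also opened 12 of 99 distinct CDR3 sequences of other TRAV families.

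The first comparison was of how often T cells of each library used the family. TRAV7 occurred in 6 of the 34 control cells that had a TRA, which is 17.6% (6.76 to 34.5). In ATRA 17 of 133 such cells carried it, which is 12.8% (7.63 to 19.7). The ratio of the ATRA to the control share was 0.724, with an exact conditional interval of 0.272 to 2.24. That interval covers counting error only, and with 1 library per treatment the spread between libraries is unknown, so no difference between treatments can be called. With at least 3 UMIs per chain the control share was 33.3% of 12 cells (9.92 to 65.1) and the ATRA share 12.1% of 91 (6.19 to 20.6). Among 14 TRAV families, TRAV7 shared the highest control count with TRAV12, and in ATRA it shared second place with TRAV21, behind TRAV6. The families whose ATRA to control ratio was nearest to that of TRAV7, of the 5 others with at least 10 cells and cells in both libraries, were TRAV9 with 0.767 and TRAV21 with 0.869. That likeness rests on 2 libraries only.

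Of the 8 segments, 7 were found in 1 library and not in the other, as were 79.6% of all 54 TRAV segments, so the split is close to the background. In control, TRAV7-3 was found in 5 cells, 14.7% of those with a TRA (4.95 to 31.1), and TRAV7N-6 in 1 cell, 2.94% (0.0744 to 15.3). In ATRA, TRAV7D-2 was found in 5 cells, 3.76% (1.23 to 8.56), TRAV7-4 in 4, 3.01% (0.825 to 7.52), and TRAV7D-3, TRAV7D-5 and TRAV7N-6 in 2 each, 1.50% (0.183 to 5.33). TRAV7-1 and TRAV7-5 were found in 1 ATRA cell each, 0.752% (0.0190 to 4.12). TRAV7-3 was found in 0 ATRA cells, which allows up to 2.26%. The control share was 6.52-fold that limit, a figure that leaves out the counting error of the control share. The exact conditional interval of the ATRA to control ratio, which includes it, had an upper bound of 0.279.

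TRAV7N-6 was thus the only one of the 8 segments named in both libraries. Among segments with 5 or more cells in all, 1 of 2 TRAV7 segments differed at least 2-fold in share, which was TRAV7-3, against 25.0% of all 12 such segments. In the direction of TRAV7-3, lower in ATRA, the background was 16.7%. In the other direction it was 8.33%, with 0 TRAV7 segments. Both TRAV7-3 and TRAV7D-2 reached 5 cells through 1 library alone, so these counts are no support for a difference. With 0 control cells and 5 ATRA cells, TRAV7D-2 could not have been called higher in ATRA. TRAV7D-2 had 0 of 34 control cells, which allows up to 8.82%, a limit above its ATRA share of 3.76%, so no difference can be read for it.

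With copies merged, the TRAV7-3 group was 14.7% in control, with 5 cells (4.95 to 31.1), and 1.50% in ATRA, with 2 (0.183 to 5.33). The ratio was 0.102 (0.00974 to 0.625). Its interval makes no allowance for picking this group among 6, and 2 of the 5 control cells were 1 clone. Both ATRA cells carried 1 distinct chain, TRAV7D-3 with TRAJ24, in 1 of them at 1 UMI beside a TRAV21-DV12 chain at 9 UMIs. The TRAV7-6 group held 1 and 2 cells, a ratio of 0.511 (0.0266 to 30.2). The TRAV7-1, TRAV7-2, TRAV7-4 and TRAV7-5 groups held 0 control cells and 1, 5, 4 and 3 ATRA cells. All of these ATRA shares lay below the 8.82% that 0 of 34 control cells allows.

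**Figure D1:**
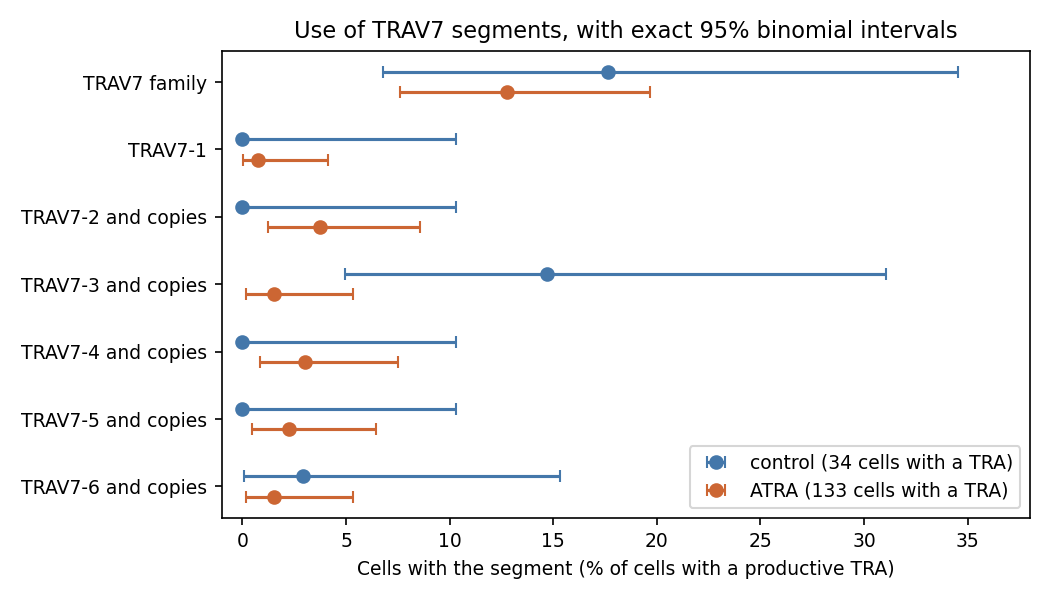
Points give the percentage of cells with a productive TRA that used the TRAV7 family or a TRAV7 number with its copies merged, in the control (blue) and ATRA (orange) library, and bars the exact 95% binomial intervals. The intervals of the 2 libraries overlap in every row, where a point at 0.0% has an exact upper bound of 10.3%, wider than the limit of 3 counts. The overlap is smallest for TRAV7-3 and its copies, at 14.7% in control and 1.50% in ATRA.

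The names were also counted by their copy letter. In control, 5 of 6 TRAV7 cells had a name with no letter, 83.3% (35.9 to 99.6), and 0 had a D name, which allows up to 50.0%. In ATRA, 6 of 17 had no letter, 35.3% (14.2 to 61.7), 9 had a D name, 52.9% (27.8 to 77.0), and 2 had the N name. The no-letter intervals of the libraries overlapped. Of cells with a chain of another TRAV family, 17 of 28 in control, 60.7% (40.6 to 78.5), and 83 of 119 in ATRA, 69.7% (60.7 to 77.8), had a name with no letter. A D name was found in 8 of these control cells, 28.6% (13.2 to 48.7), and 33 of these ATRA cells, 27.7% (19.9 to 36.7). The intervals of TRAV7 and other cells overlapped for no letter in both libraries and for D names in ATRA. These shares follow from the segments above, since all 5 control cells with no letter used TRAV7-3. In locus order the ATRA cells were spread from TRAV7-1 at the far end to TRAV7-5, and 10 of 17 used one of the 4 segments found at the far end, TRAV7-1, TRAV7D-2, TRAV7D-3 and TRAV7D-5.

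**Figure D2:**
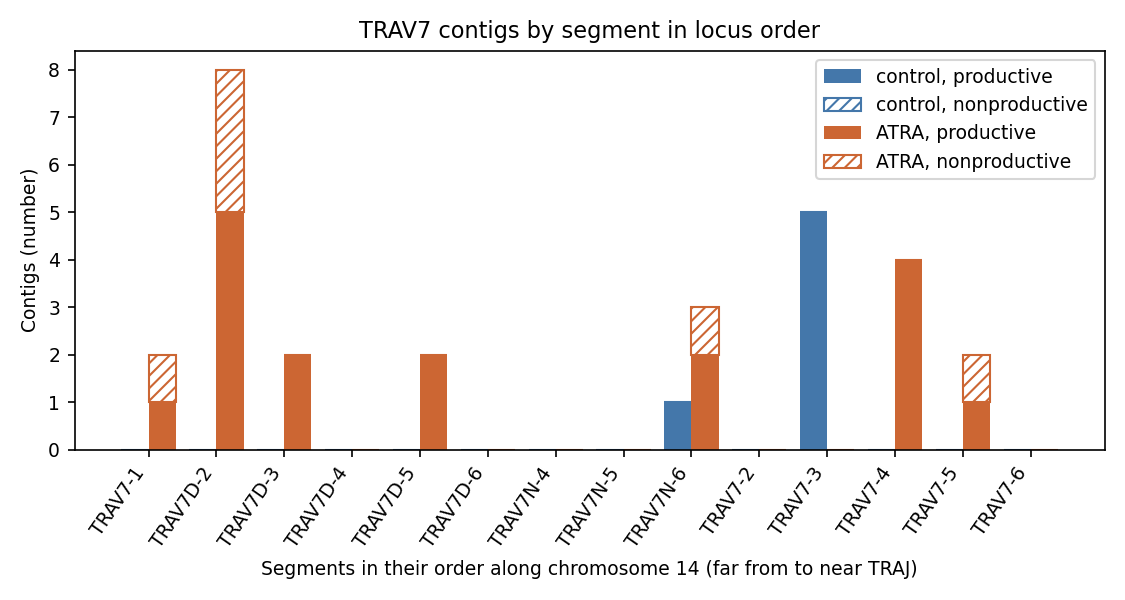
Bars count TRAV7 contigs for each of the 14 annotated segments, in their order along chromosome 14, with filled parts for productive and hatched parts for nonproductive contigs. The 5 TRAV7-3 contigs all came from control (blue), and TRAV7D-2 had the most ATRA contigs (orange), 5 productive and 3 nonproductive.

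The J segments joined to TRAV7 were varied. The family used 15 of the 36 TRAJ segments found in productive chains, 5 in control and 12 in ATRA. TRAJ37 was found in 3 ATRA cells, in 2 of them with TRAV7D-2 in 1 clone and in 1 with TRAV7D-5. TRAJ30 was joined to TRAV7-3 in 1 control cell and to TRAV7D-2 in 1 ATRA cell. TRAJ17 was joined to TRAV7D-2 and TRAV7-4, and TRAJ13 to TRAV7-1 and TRAV7D-2, in 1 ATRA cell each. TRAJ27 and TRAJ24 were each found in 2 cells with the same chain, TRAJ27 with TRAV7-3 in control and TRAJ24 with TRAV7D-3 in ATRA.

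Among productive chains, TRAJ4 was joined to TRAV7N-6 in 1 control and 1 ATRA cell and to no other TRAV segment (0 cells of each library). TRAJ24 and TRAJ52 likewise had 0 cells of other families among productive chains. The J side of TRAV7-4 with TRAJ52 shown above was matched to 1 contig that was not among them. TRAJ4, TRAJ24 and TRAJ52 were found in 2, 2 and 1 cells in all. The same count for other families is not given here, so this cannot be read as particular to TRAV7. TRAJ4 lies at 54216291 to 54216353 and was the J nearest the constant region among the TRAV7 partners, while TRAJ52, at 54165316 to 54165381, was the most upstream.

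TRAJ segments numbered 25 or lower lie in the part of the cluster nearest the constant region. They were used by 8 of 15 distinct ATRA TRAV7 chains, 53.3% (26.6 to 78.7), against 21 of 82 distinct ATRA chains of other families, 25.6% (16.6 to 36.4). In control they were used by 2 of 5 TRAV7 chains, 40.0% (5.27 to 85.3), and 4 of 19 others, 21.1% (6.05 to 45.6). The TRAV7 share was the higher in both libraries, and in each library the counting intervals overlapped.

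**Figure D3:**
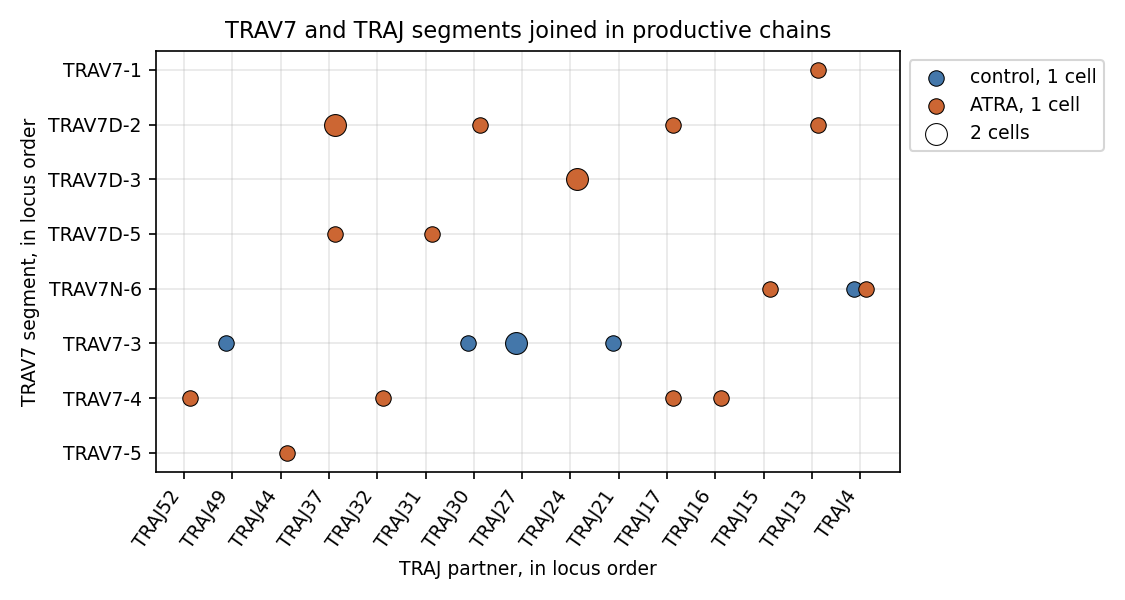
Each circle is a TRAV7 segment (vertical axis) joined to a TRAJ segment (horizontal axis), both in locus order, in the control (blue) or ATRA (orange) library, with a larger circle for 2 cells. TRAJ4 is the one partner that a single segment, TRAV7N-6, used in both libraries.

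CDR3 amino acid sequences followed the V number at their start. All 4 distinct chains of the TRAV7-2 group and all 4 of TRAV7-4 began CAA, while the 3 of the TRAV7-6 group, the 1 of TRAV7-1 and 4 of 5 of the TRAV7-3 group began CAV. The fifth, TRAV7-3 with TRAJ27, began CAD, and its V side shared 7 bases. In the TRAV7-5 group 2 chains began CAVS and 1 began CAAP. Over all 20 distinct chains, 10 began CAV, 50.0% (27.2 to 72.8), and 9 began CAA, 45.0% (23.1 to 68.5). Among 101 distinct chains of other families 13 began CAV, 12.9% (7.04 to 21.0), and 25 began CAA, 24.8% (16.7 to 34.3). The first residues of an alpha CDR3 are encoded by the V segment, so this difference is tied to the choice of members.

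The start CAASE was found in 3 of 4 TRAV7-4 chains, those with TRAJ16, TRAJ32 and TRAJ52, and not in the fourth, with TRAJ17, whose V side shared 10 bases. CAVS opened 6 TRAV7 chains, 2 from control and 4 from ATRA. At the other end KLTF closed 5 of 20 TRAV7 chains, 25.0% (8.66 to 49.1), and 23 of 101 others, 22.8% (15.0 to 32.2). KLIF closed 3 TRAV7 chains, 15.0% (3.21 to 37.9), and 16 others, 15.8% (9.33 to 24.4). These endings are encoded by the J segment and were about as frequent as in other families.

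Between the ends, 2 of 76 strings of 3 residues were shared by at least 3 TRAV7 chains. NTG occurred in 5 chains, 25.0% (8.66 to 49.1), against 10 of 101 others, 9.90% (4.85 to 17.5). GNT occurred in 3, 15.0% (3.21 to 37.9), against 5 others, 4.95% (1.63 to 11.2). The chains with NTG used TRAJ27, TRAJ49, TRAJ37 and TRAJ52, so the string came from several J segments, in both libraries. No TRAV7 CDR3 was shared between the libraries (0 of 20 amino acid sequences), and 0 of the 20 occurred on another TRAV family. The same counts for other families are not given here, so this cannot be read as particular to TRAV7.

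CDR3 length averaged 12.2 amino acids over the 5 distinct control TRAV7 chains (SD 2.05, range 9 to 14) and 13.8 over 19 others (SD 1.51). In ATRA it averaged 14.1 over 15 TRAV7 chains (SD 1.55, range 12 to 17) and 13.9 over 82 others (SD 1.32). Both ends of the length range of all 121 distinct TRA chains were TRAV7N-6 with TRAJ4. The control chain, with 9 residues, was the shortest. The ATRA chain, with 17, was 1 of the 2 longest.
TRAV7N-6 with TRAJ4, control: tgtgcagtgagcatatctctaggacgg
TRAV7N-6 with TRAJ4, ATRA: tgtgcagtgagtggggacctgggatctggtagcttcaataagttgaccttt

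These are shown to compare their ends. The control sequence does not close with F or W, the residue that normally ends a CDR3, although its contig was marked productive. Of 121 distinct TRA chains 6 lacked that residue, and the other 5 all used TRAJ44, among them TRAV7-5 with TRAJ44, which closed with KLTL. Without the control TRAV7N-6 chain the control TRAV7 mean was 13 residues (n = 4 chains), which left the control and ATRA means closer.

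**Figure D4:**
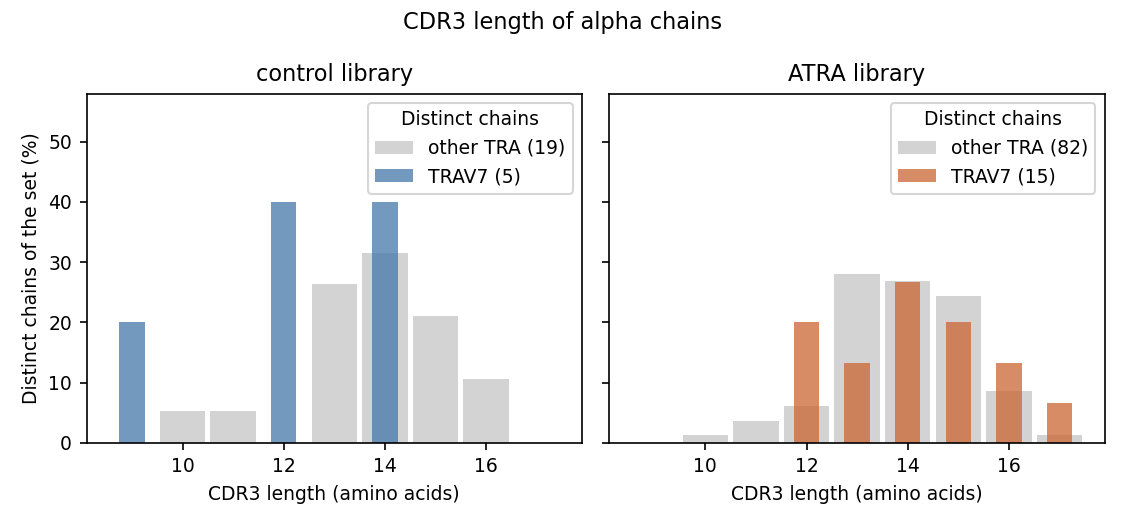
Bars give the percentage of distinct chains at each CDR3 length, in amino acids, for TRAV7 (narrow, coloured) and all other TRA (wide, grey), with control at left and ATRA at right. The TRAV7 lengths ran from 9 to 14 in control and from 12 to 17 in ATRA.

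Receptors need a beta chain (TRB) as partner, and it was found for most TRAV7 cells. A productive TRB was present in 5 of 6 control TRAV7 cells, 83.3% (35.9 to 99.6), and in 14 of 17 ATRA TRAV7 cells, 82.4% (56.6 to 96.2). Among cells with other TRA chains it was present in 25 of 28, 89.3% (71.8 to 97.7), and 107 of 116, 92.2% (85.8 to 96.4). Thinned to 4 receptor UMIs a cell, 96.2% of 5 control and 69.2% of 16 ATRA TRAV7 cells were paired, against 87.9% of 18 and 72.4% of 109 other cells. Shallower cells were left out, 1 of TRAV7 in each library and 10 and 7 of the others. In each library the TRAV7 cell left out had no productive TRB. Before thinning, the TRAV7 cells kept gave 100.0% and 87.5%, and the other control cells kept also gave 100.0%. Leaving out shallow cells thus removed unpaired ones, so the thinned shares cannot settle whether pairing differed. With at least 3 UMIs on both chains, 1 of 4 control TRAV7 cells was paired, 25.0% (0.631 to 80.6), and 7 of 11 ATRA ones, 63.6% (30.8 to 89.1).

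In control the beta partners were few. TRBV5 was paired with TRAV7-3 in 3 of 5 cells, 60.0% (14.7 to 94.7), 2 of them 1 clone, against 1 of 25 control cells with other alpha chains, 4.0% (0.101 to 20.4). The remaining 2 TRAV7-3 cells had TRBV29 with TRBJ2-1 and TRBV1 with TRBJ2-2. In ATRA TRBV5 was paired with 0 of 14 TRAV7 cells, which allows up to 21.4%, and with 15 of 107 others, 14% (8.06 to 22.1). The limit lies above the share of the others, so an ATRA difference was not detectable.

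In ATRA 14 TRAV7 cells carried 9 TRBV names. TRBV29 was found in 3 cells, 21.4% (4.66 to 50.8), against 11 of 107 others, 10.3% (5.24 to 17.7). In 1 of these 3 cells, with TRAV7-4 and TRAJ32, that TRB rested on 1 UMI and 1 read. The same TRB was found in 4 other ATRA cells with 5 to 22 UMIs. TRBV19 and TRBV14 were found in 2 cells each, the TRBV14 cells with 1 TRB chain. TRBV13-2 and the fused name TRBV12-2+TRBV13-2 were found in 2 cells each. As 1 group these names held 4 of 14 TRAV7 cells, 28.6% (8.39 to 58.1), and 8 of 107 others, 7.48% (3.28 to 14.2). In control they held 0 of 5 TRAV7 cells and 7 of 25 others, 28.0% (12.1 to 49.4), so the order was not the same in the 2 libraries.

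TRBJ2 use beside TRAV7 was above that of other cells in control and below it in ATRA. All 5 paired control cells used a TRBJ2 segment (47.8 to 100.0), against 15 of 25 others, 60.0% (38.7 to 78.9). In ATRA 5 of 14 did, 35.7% (12.8 to 64.9), and 9 used TRBJ1 alone, against 71 of 107 others with TRBJ2, 66.4% (56.6 to 75.2). The intervals of TRAV7 and other cells overlapped in both libraries, and the difference between libraries was not tested.

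Most TRAV7 chains were seen in a single cell, and 3 chains were seen in 2 cells each. The first, TRAV7-3 with TRAJ27 in control, had the same TRB in both cells, TRBV5 with TRBJ2-2. Its alpha chain had 3 UMIs in each cell and its TRB 1 UMI in each. The second, TRAV7D-2 with TRAJ37 in ATRA, had a TRB with TRBJ1-1 that was identical in its CDR3 nucleotides in both cells. That TRB was named TRBV13-2 in 1 cell and TRBV12-2+TRBV13-2 in the other, so 1 clone carried both names.

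The last, TRAV7D-3 with TRAJ24 in ATRA, was divided over 2 deposited clonotypes. Both cells had TRBV14 with TRBJ1-5, and both also held a nonproductive TRAV4D-4 contig with TRAJ32. In 1 of them TRAV7D-3 had 1 UMI and a further productive alpha chain, TRAV21-DV12 with TRAJ56, had 9. In the other cell TRAV7D-3 had 4 UMIs and was the only productive alpha chain. The CDR3s of this alpha chain and of the TRB of each clone are given, without marked bases, since they define the clones.
TRAV7D-3 with TRAJ24, ATRA: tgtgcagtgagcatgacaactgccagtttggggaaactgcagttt
TRBV14 with TRBJ1-5, beside TRAV7D-3: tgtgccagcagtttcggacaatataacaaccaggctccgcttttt
TRBV13-2 or its fused name with TRBJ1-1, beside TRAV7D-2: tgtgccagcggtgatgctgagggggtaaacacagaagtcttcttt
TRBV5 with TRBJ2-2, beside TRAV7-3: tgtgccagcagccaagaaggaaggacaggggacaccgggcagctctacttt

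By the deposited clonotypes, expanded clones (at least 2 cells) held 2 of 6 control TRAV7 cells, 33.3% (4.33 to 77.7), and 9 of 28 others, 32.1% (15.9 to 52.4). In ATRA they held 2 of 17 TRAV7 cells, 11.8% (1.46 to 36.4), and 49 of 116 others, 42.2% (33.1 to 51.8). With clones defined by the TRA chain, ATRA TRAV7 cells in expanded clones numbered 4 of 17, 23.5% (6.81 to 49.9), because the TRAV7D-3 chain was then 1 clone. The share of other cells under that definition is not given here, so the 23.5% cannot be set against 42.2%. The ATRA intervals of TRAV7 and other cells overlapped under the deposited clonotypes. No TRAV7 chain was seen in more than 2 cells.

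UMIs of the TRAV7 chains lay within the range of other alpha chains. In control the 6 chains had 1, 2, 3, 3, 3 and 5 UMIs, a median of 3, against a median of 2 over 28 other chains, where values also ran from 1 to 5. In ATRA the lowest had 1 UMI, the median was 4 and the highest had 26, against a median of 3 over 130 other chains, from 1 to 26. The ranges overlapped almost fully. Chains with a single UMI were 1 of 6 and 3 of 17 for TRAV7, and 10 of 28 and 17 of 130 for others. By group, UMIs of the TRAV7-2 copies ran from 2 to 26, of the TRAV7-3 group from 1 to 5, of TRAV7-4 from 2 to 4, of the TRAV7-5 group from 3 to 7 and of TRAV7N-6 from 1 to 3. Both ATRA TRAV7N-6 chains had 1 UMI.

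**Figure D5:**
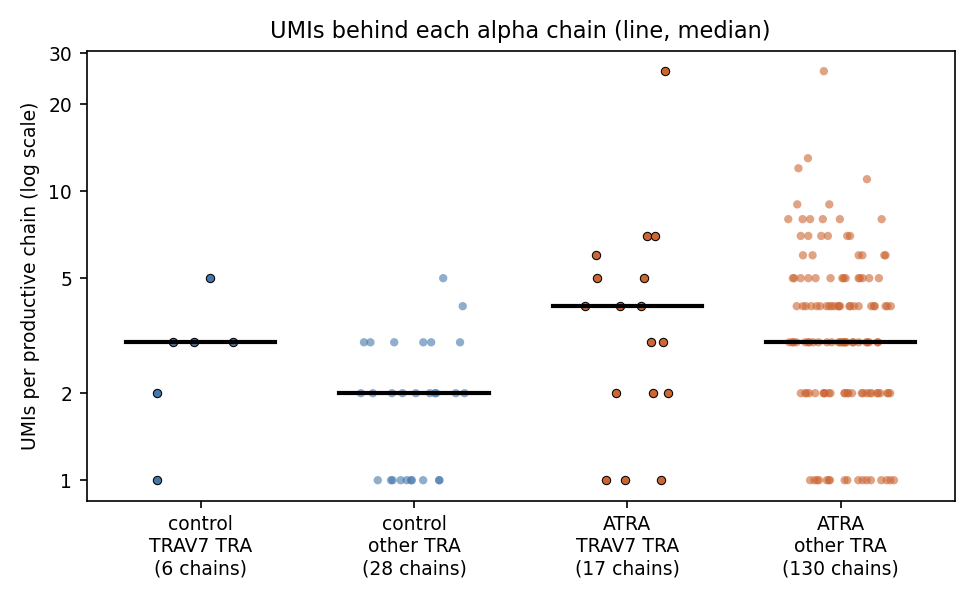
Points are the UMIs of single productive alpha chains on a log scale, for TRAV7 and all other TRA chains of the control (blue) and ATRA (orange) library, with spread along the horizontal axis for visibility only and lines at the medians. Medians were 3 and 2 in control and 4 and 3 in ATRA, and a single TRAV7 chain stands at 26.

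The chain with 26 UMIs was TRAV7D-2 with TRAJ13, which tied for the most UMIs of 147 ATRA TRA chains. It rested on 893 reads, or 34.3 reads per UMI, the lowest of those 147 chains, and its cell had no productive TRB. The median was 6551 reads per UMI over the 17 ATRA TRAV7 chains and 9599 over the 6 control ones. Among beta partners, the TRB beside TRAV7-4 with TRAJ32, TRBV29 with TRBJ1-2, rested on 1 UMI and 1 read. The same TRB was found in 4 other ATRA cells with 5 to 22 UMIs, 3 of which carried TRAV4-4-DV10 with TRAJ49, so the pairing with TRAV7-4 rests on that single read.

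A second productive alpha chain was found in 3 of 17 ATRA TRAV7 cells, 17.6% (3.80 to 43.4), against 11 of 116 others, 9.48% (4.83 to 16.3). The partner chains were TRAV21-DV12 with TRAJ56, TRAV9-2 with TRAJ31 beside TRAV7-1, at 3 UMIs against 6, and TRAV12-2 with TRAJ32 beside TRAV7D-5, at 3 UMIs each. In control 0 of 6 TRAV7 cells had one, as did 0 of 28 others. No cell had 2 productive TRAV7 chains (0 cells).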

How the data were processed

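Each receptor library came as 1 table of contigs, which are transcripts assembled within 1 barcode. Tools named by the submitters' processing notes are Cell Ranger 3.1.0 and bcl2fastq 2.20.0, with build GRCm38. The values used, per the file headers, were UMI counts and read counts of each contig as the authors deposited them, with no scaling. All contigs were marked as cells and as high confidence (0 removed).

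Cells were barcodes with a productive TRA or TRB. Doublets were not called. Shares used exact binomial intervals and ratios exact intervals conditional on the sum (SciPy 1.17.1, pandas 2.3.3, Python 3.11.15, matplotlib 3.10.9). Both kinds of interval were tested on simulated data. Named are each TRAV7 segment found, partners in at least 2 TRAV7 cells, and the 2 families most like TRAV7. Other chains were singled out after their values were seen. Members and lists were chosen with earlier results of these data known. Coordinates came from the RefSeq table of GRCm38.p6. Germline V and J sequences were not used here, so trimmed and added bases were not counted.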

Additional observations from a re-analysis of the deposited data

Results flagged for a closer look

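Nonproductive TRAV7 contigs, which the shares above leave out, were found in the ATRA library and not in control. There were 6, in 6 of 160 ATRA cells, 3.75% (1.39 to 7.98), and 0 in 74 control cells, which allows up to 4.05%. They made up 9.84% (3.70 to 20.2) of 61 nonproductive ATRA TRA contigs with a TRAV name, while control had 8 such contigs. The control limit lies above the ATRA share, so a difference was not detectable. They were TRAV7D-2 with TRAJ6, TRAJ15 and TRAJ42, TRAV7-1 with TRAJ39, TRAV7-5 with TRAJ49 and TRAV7N-6 with TRAJ26, with 2 to 6 UMIs. TRAV7D-2 was thus the most frequent segment among both productive and nonproductive ATRA contigs of the family.

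A CDR3 was listed for 4 of the 6. In 3 of them its first 5 bases equalled bases 3 to 7 of the productive chains, a start in another reading frame. They are shown for that start, which is not marked.
TRAV7-1 with TRAJ39: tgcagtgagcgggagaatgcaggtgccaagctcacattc
TRAV7D-2 with TRAJ15: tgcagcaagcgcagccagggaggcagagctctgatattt
TRAV7-5 with TRAJ49: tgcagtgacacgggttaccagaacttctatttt
The fourth, TRAV7N-6 with TRAJ26, began as the productive chains did. One cell held both a productive and a nonproductive TRAV7 chain, TRAV7-4 with TRAJ16 and TRAV7D-2 with TRAJ15, at 3 UMIs each.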

How the results depend on the processing

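Of 88 recomputed values over 22 results, 84 stayed within the counting interval or SD of the reported value, and 0 reversed. That tally is a weak check. The TRAV7-1, TRAV7-2, TRAV7-4 and TRAV7-5 groups had 0 control cells and could only stay at 0 there. Intervals over few cells were also wide. The control share with a TRB counted as within at 40.0% with at least 2 UMIs per chain, against 83.3% reported. The TRAV7-6 group fell to 0.0% of 30 control cells in paired cells alone, since its 1 control cell had no productive TRB. It fell to 0.0% of ATRA cells with at least 2 or 3 UMIs per chain, since both its ATRA chains had 1 UMI. The share of control TRAV7 cells with a TRB was 25.0% (1 of 4) with at least 3 UMIs per chain. Of the unpaired cells, 2 were 1 clone with a TRB of 1 UMI in each, and the TRAV7N-6 cell had no productive TRB. The family share was 16.7% to 33.3% in control and 11.6% to 15.8% in ATRA. A minimum of 10 reads per chain, chosen after seeing the data, left 13 of 17 ATRA TRAV7 cells with a TRB, 76.5%. Removing the control CDR3 without a closing F or W was also chosen then. No paired analysis was possible because each treatment had 1 library. Depth limits all values, since control held 17 and ATRA 83 UMIs of the family.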

Other observations

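The beta chains of the cells with a nonproductive TRAV7 contig were looked at after their values were seen. TRBV31 was found in 3 of the 5 that had a productive TRB, 60.0% (14.7 to 94.7), and in 3 of 143 other ATRA cells with a TRB, 2.10% (0.435 to 6.01). The 3 cells had different TRBs and different TRAV7 segments, TRAV7-1, TRAV7D-2 and TRAV7N-6, and those with TRAV7-1 and TRAV7N-6 had no productive alpha chain. Of the 3 other ATRA cells with TRBV31, 1 carried the productive TRAV7D-5 chain with TRAJ37, so that cell is already part of the 2.10%.

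Contigs of TRAV7-4 were 594 to 600 bases long in its 4 cells and the TRAV7-1 contig was 633, while those of the TRAV7-2 and TRAV7-3 groups were 508 to 563 and 513 to 549. Those of the TRAV7-5 group were 521 to 579, the longest being TRAV7-5, and those of the TRAV7-6 group 513 to 537.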
